A study of Mus musculus with 23 samples.

Results

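Mitochondrial chaperones and proteases were examined in the brown adipose tissue (BAT) of mice that carried or lacked the mitochondrial calcium uniporter in this tissue, at room temperature (RT) and in the cold. The set holds 8 genes, chosen by symbol, out of 14651 in the deposited expression table: Hspd1, Hspe1, Hspa9, Dnaja3, Lonp1, Clpp, Clpx and Afg3l2. All 8 were found, and all passed the study's filter on low counts. BAT RNA was sequenced from 23 male mice of 8 to 12 weeks on a largely C57BL/6 background. Per the paper, the floxed line came from embryonic stem cells of mixed background and was then crossed to C57BL/6J. The Cre line was a B6.FVB strain. Control mice were Mcu[fl/fl], with loxP sites around an exon of Mcu, which encodes the pore of the uniporter, and no Cre. BAT-Mcu-KO mice (the knockouts) were Mcu[fl/fl];Ucp1-Cre, in which Cre is driven by the promoter of the thermogenic gene Ucp1, so that other cells in the tissue keep the gene. Both genotypes thus carried the floxed alleles. The 4 groups were control mice at RT (n = 6), control mice at 4°C (n = 5), BAT-Mcu-KO mice at RT (n = 6) and BAT-Mcu-KO mice at 4°C (n = 6). Per the paper, mice were kept at RT or 4°C for 6 h. Cold exposure came with single housing, no bedding and, in general, no food. Cold therefore cannot be told apart from these other changes of housing.

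Most mitochondrial proteins are made in the cytosol, imported unfolded and folded inside the organelle. Hspa9, an ATP-driven chaperone of the matrix also called mortalin, pulls proteins in and passes them on, with the J-domain protein Dnaja3 as a partner. Hspd1 forms the folding chamber of the matrix and Hspe1 its lid. Lonp1 and the ClpXP pair (the peptidase Clpp and the unfoldase Clpx) degrade matrix proteins, and Afg3l2 is a subunit of a protease anchored in the inner membrane. Raised transcription of such genes when mitochondrial proteins misfold is known as the mitochondrial unfolded protein response. BAT is rich in mitochondria, and cold makes it burn fuel for heat.

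Each library held 7129271 to 21006347 reads (median 13602248), and values are given as normalized counts, read counts divided by a size factor for each library. Mcu, the targeted gene, averaged 110 ± 22.5 (SD, n = 6) in control mice and 35.1 ± 10.03 (n = 6) in the knockouts at RT, and its ranges did not overlap between genotypes at either temperature. The 7 brown adipocyte markers checked were all present. Their summed level was 174700 to 247300 in the mice at RT and 273100 to 336000 in those at 4°C. Among them, the mean of Ucp1 was 63858 at RT and 165200 at 4°C in control mice and that of Ppargc1a 573 and 19302, while Cidea (log2 -0.32, adjusted p = 0.00919) and Adipoq (-0.38, adjusted p = 0.0115) fell by cold in these mice. The summed level of 3 endothelial markers was also higher in the cold, at 2149 to 3172 against 4187 to 6836 in control mice and at 2280 to 3126 against 3822 to 5759 in BAT-Mcu-KO mice. Of these, Pecam1 and Kdr rose in both genotypes in the limma test described below. Cdh5 passed it in neither (log2 0.35, adjusted p = 0.077 in control mice, and 0.05, adjusted p = 0.822 in BAT-Mcu-KO mice). Muscle markers varied from 6.22 to 41360 within and across all groups, macrophage markers from 333 to 796 and red blood cell markers from 1742 to 6635. The macrophage sum was 333 to 606 at RT and 586 to 796 at 4°C in BAT-Mcu-KO mice. There Cd68 and Lyz2 passed upward by cold, and Adgre1 and Csf1r did not pass. In control mice the macrophage sum was 379 to 669 at RT and 450 to 653 at 4°C, and no macrophage marker passed. The summed level of Lep and Retn, which mark white adipocytes, was 504 to 1673 at RT and 267 to 663 at 4°C. The part of these cell types in the results below was not tested, and in whole tissue fewer cells of a type cannot be told apart from less RNA per cell.

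Of the 8 genes, 4 were higher at 4°C than at RT in control mice and 3 in BAT-Mcu-KO mice, and none was lower. The chaperonin genes Hspd1 and Hspe1 and the import motor gene Hspa9 rose in both genotypes. Afg3l2 rose in control mice, and its change in BAT-Mcu-KO mice did not pass the test. The protease genes Lonp1, Clpp and Clpx passed it in neither genotype. The test was limma's moderated test on log2(normalized count + 1) over all genes, with an adjusted p (Benjamini-Hochberg) under 0.05 as the threshold. Cold moved much of the transcriptome: 46% of all genes passed in control mice (22.3% of all genes upward), and 43.3% passed in BAT-Mcu-KO mice (21.4% upward). The members' shares were 50% and 37.5%, and their median log2 fold changes were 0.31 in both genotypes, beside medians of -0.02 over all genes.

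**Figure D1:**
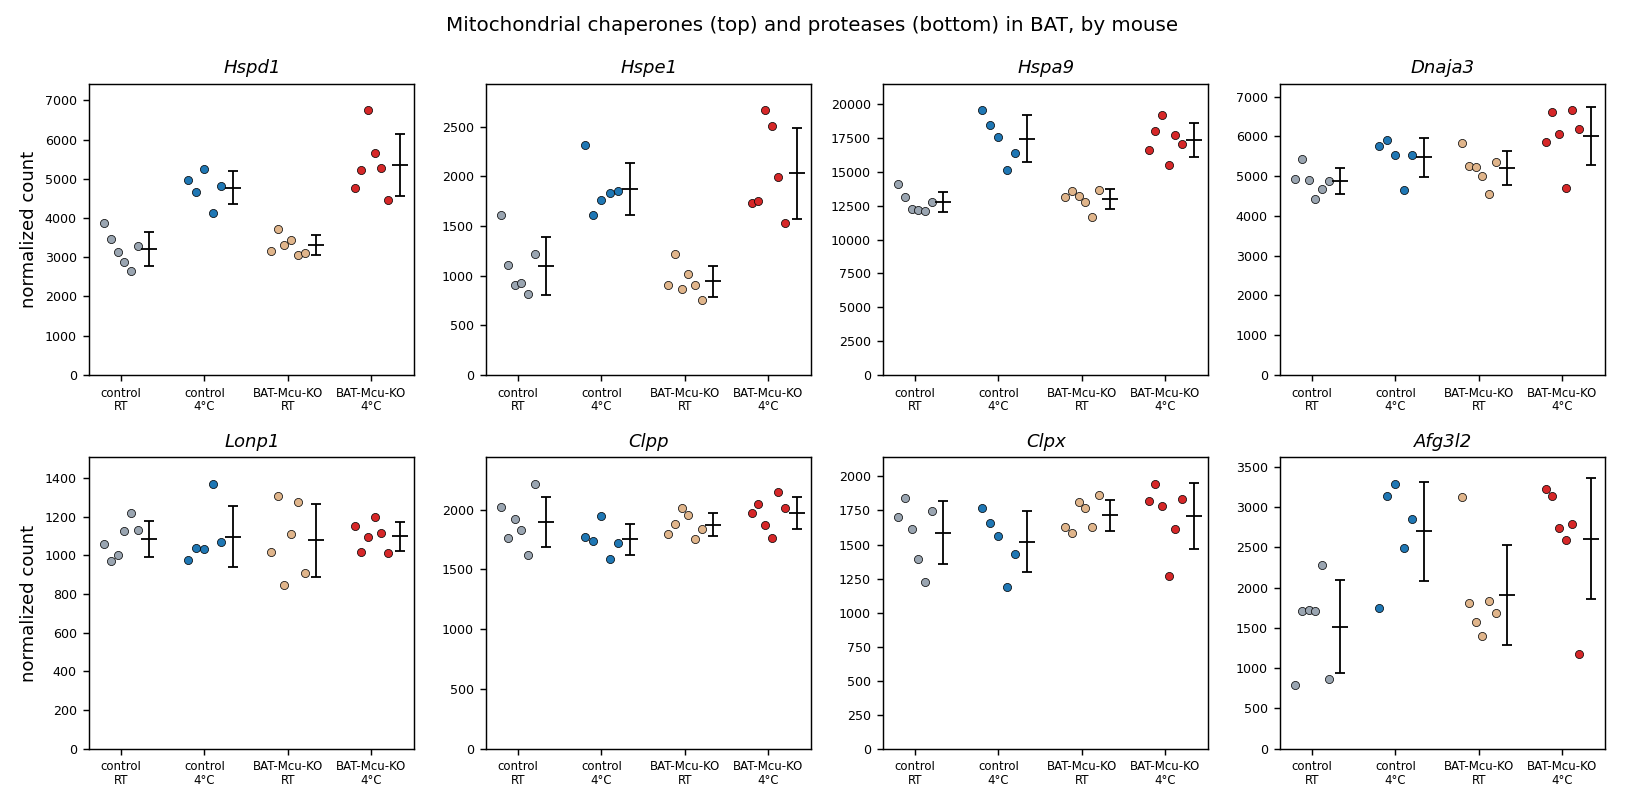
Normalized counts (vertical axes, from 0) of the 4 chaperone genes (top) and 4 protease genes (bottom) in each mouse of the 4 groups. Each point is a mouse and the bar beside it the group mean ± SD. Hspd1, Hspe1 and Hspa9 at 4°C lie above every RT mouse of the same genotype, whereas Lonp1, Clpp and Clpx overlap throughout.

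Hspd1 and Hspe1 lie head to head on chromosome 1, on opposite strands, at chr1:55077835-55088243 and chr1:55088132-55091307 (GRCm38), and their exons share 112 bp in the annotation read here. Counting ignored strand, so reads from those bases cannot be assigned to either gene, and 5 pseudogenes of Hspd1 and 6 of Hspe1 are annotated elsewhere. The start regions of Hspe1, Lonp1 and Clpp are printed because Hspe1 passed the test by cold and Lonp1 and Clpp, under the scaling used here, did not, each 250 bases before to 50 after the RefSeq start (GRCm38.p6), 5′ to 3′ on the gene's strand. Capitals mark heat shock elements, the letters read by heat shock transcription factors: an unbroken run of the 3-unit form (GAANNTTC continued by NNGAA, where N is any base) on either strand, or the 2-unit forms GAANNTTC and TTCNNGAA, both contained in the 3-unit form.
Hspe1 (chr1:55087898-55088197, plus strand): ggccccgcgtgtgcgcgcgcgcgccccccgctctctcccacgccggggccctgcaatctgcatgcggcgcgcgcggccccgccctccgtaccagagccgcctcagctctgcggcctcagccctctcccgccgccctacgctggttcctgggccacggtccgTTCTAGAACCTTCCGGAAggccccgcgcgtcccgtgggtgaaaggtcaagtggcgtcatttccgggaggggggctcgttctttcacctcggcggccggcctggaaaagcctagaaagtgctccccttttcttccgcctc
Lonp1 (chr17:56626854-56627153, minus strand): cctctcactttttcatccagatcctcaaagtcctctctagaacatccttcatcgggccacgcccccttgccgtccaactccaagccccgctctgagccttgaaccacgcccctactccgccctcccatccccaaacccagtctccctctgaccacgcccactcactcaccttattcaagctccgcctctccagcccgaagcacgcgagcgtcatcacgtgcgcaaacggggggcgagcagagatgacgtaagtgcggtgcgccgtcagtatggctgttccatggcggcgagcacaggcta
Clpp (chr17:56990014-56990313, plus strand): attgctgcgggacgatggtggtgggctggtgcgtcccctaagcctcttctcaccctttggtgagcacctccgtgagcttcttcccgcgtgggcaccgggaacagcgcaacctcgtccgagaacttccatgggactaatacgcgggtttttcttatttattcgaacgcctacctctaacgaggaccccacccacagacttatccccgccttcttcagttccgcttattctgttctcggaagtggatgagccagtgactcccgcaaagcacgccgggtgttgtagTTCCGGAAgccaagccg
The Hspe1 window held a run of 18 bases, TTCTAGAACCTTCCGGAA, 72 to 89 bases before its start, in which the 3-unit form occurs in overlapping matches. The same bases, read on the other strand, lie 127 to 144 bases before the second of the RefSeq starts of Hspd1, and after the first. The 3-unit form was found in 198 of 32851 windows of this length, or 0.603%. Clpp held only the 2-unit TTCNNGAA, found in 8.52% of windows, 33 to 40 bases after its start. No such letters stood in the windows of Lonp1, Clpx or Dnaja3. Of the 8 genes, 6 had a window, 7 windows in all. Hspa9 and Afg3l2 had none. The first window of Hspd1 held no heat shock element, so that the matches in Hspd1 and Hspe1 are the same run of bases. The NRF1 letters, GCGC on both sides of 2 bases of any kind (6.23% of windows), named for a regulator of nuclear genes for mitochondria, occurred in windows of Hspd1, Hspe1 and Dnaja3. The CEBP-ATF letters TGATGNAA (3.97%), the cAMP response letters TGACGTCA (1.79%) and the estrogen-related receptor letters TCAAGGTCA (0.423%) occurred in none of the 7. These are matches of letters on both strands, and no binding was measured. Whether they bear on the changes by cold was not tested.

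Hspe1, the lid of the folding chamber, had normalized counts in control mice at RT of 812 at the lowest, 1013 at the median and 1609 at the highest. At 4°C the 5 control mice had 2312, 1612, 1759, 1829 and 1848. All cold mice lay above all RT mice, though the lowest of them exceeded the highest RT mouse by little. The fold change was 1.74 (log2 0.80, SE 0.16, adjusted p = 0.000177). BAT-Mcu-KO mice had 758, 901 and 1212 at RT as the lowest, median and highest, against 1533, 1872 and 2665 at 4°C. These groups also did not overlap, and the fold change was 2.13 (log2 1.09, SE 0.15, adjusted p = 1.92e-06), the largest among the 8 genes.

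Hspd1, the chamber itself, had 2640, 3217 and 3878 in control mice at RT. The control mice at 4°C had 4968, 4668, 5257, 4120 and 4819, each above every RT mouse. The fold change was 1.49 (log2 0.57, SE 0.10, adjusted p = 4.43e-05). In the knockouts, counts of 3068, 3238 and 3726 at RT stood against 4461, 5238 and 6751 at 4°C. The groups were again separate, with a fold change of 1.61 (log2 0.69, SE 0.10, adjusted p = 2.24e-06). Without overlap in the upward direction were 3 of the 8 genes in each genotype, beside 13% of all genes in control mice and 12.4% in BAT-Mcu-KO mice.

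Within a mouse, the ratio of Hspd1 to Hspe1 normalized counts was lower in the cold in BAT-Mcu-KO mice. Its values were 3.07, 3.45 and 4.08 (lowest, median, highest) at RT and 2.25, 2.69 and 2.98 at 4°C, with no overlap. The mean log2 ratio went from 1.82 to 1.41, a difference of -0.41 (two-sided exact permutation test, p = 0.00216, 0.0173 after adjustment over the 8 ratio comparisons made). In control mice it went from 1.58 to 1.35, and the ranges overlapped (exact p = 0.0952, adjusted 0.242). Between genotypes the log2 ratio differed by 0.24 at RT (exact p = 0.0346, adjusted 0.138) and by 0.06 at 4°C (exact p = 0.578, adjusted 0.745), neither of which passed after adjustment. Whether the change by cold differed between genotypes was not tested for the ratio. For the ClpXP pair, the mean log2 ratio of Clpx to Clpp stayed between -0.26 and -0.13 in the 4 groups, and none of its 4 comparisons passed (exact p from 0.121 to 0.996 before adjustment). Single mice bore on the ratios: before adjustment, the exact permutation p of the Clpx/Clpp difference between genotypes at RT was 0.00433 without replicate 2 of the control mice at RT (difference 0.20), and that of the Hspd1/Hspe1 change by cold in control mice was 0.0397 without replicate 1 at RT (-0.29).

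**Figure D2:**
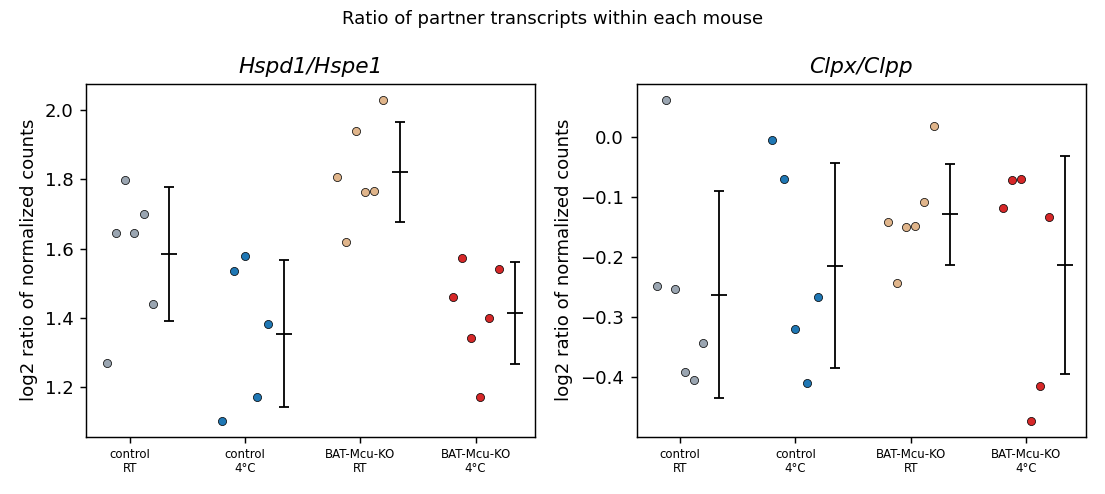
Log2 ratio of normalized counts within each mouse for the chaperonin pair (left) and the ClpXP pair (right), by group, with mean ± SD beside the points. In the left panel the BAT-Mcu-KO mice at 4°C, 1.17 to 1.57, lie below those at RT, 1.62 to 2.03, whereas the Clpx/Clpp ratios overlap between all groups.

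Hspa9, the import motor, was the most abundant of the 8 genes in every group, also per length. Its counts in control mice at RT were 12125, 12517 and 14120 (lowest, median, highest). At 4°C the control mice had 19558, 18480, 17588, 15145 and 16413. All were above the RT mice, and the fold change was 1.36 (log2 0.45, SE 0.08, adjusted p = 3.54e-05). BAT-Mcu-KO mice had 11653, 13170 and 13656 at RT and 15491, 17362 and 19192 at 4°C, without overlap. The fold was 1.33 (log2 0.41, SE 0.07, adjusted p = 5.32e-05). The change was small but the spread within groups was low: the within-group SD of Hspa9, 0.105 on the log2 scale, exceeded that of 1.59% of the 126 genes within 2-fold of its level. Hspa9 lies on chromosome 18, and 1 pseudogene of it is annotated.

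Dnaja3, its J-domain partner, lies at chr16:4639989-4707695 and shares 153 exonic bp with Coro7 and 160 bp with Vasn. Control mice had 4428, 4887 and 5422 at RT and 5749, 5914, 5530, 4657 and 5532 at 4°C. Of the 5 cold mice, 4 lay above all RT mice and 1, replicate 4, lay among them. The log2 fold change was 0.17 (SE 0.09, adjusted p = 0.126). BAT-Mcu-KO mice had 4550, 5255 and 5827 at RT and 4695, 6117 and 6662 at 4°C, and 5 of 6 cold mice exceeded all at RT. The log2 fold change of 0.20 (SE 0.08, adjusted p = 0.052) lay close to the threshold. It passed without replicate 4 of the BAT-Mcu-KO mice at 4°C (log2 0.27, adjusted p = 0.00566), without replicate 1 of those at RT (0.24, adjusted p = 0.0316) and under DESeq2 (0.21, adjusted p = 0.0379). In control mice it passed without replicate 4 at 4°C (0.22, adjusted p = 0.0453). Some other settings made the change of Dnaja3 smaller, down to log2 0.069 in BAT-Mcu-KO mice and 0.021 in control mice.

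The matrix protease genes did not pass the test by cold in either genotype. Lonp1 (chr17:56614297-56626887) ranged from 847 to 1371 over all 23 mice, with means of 1086 ± 92.7 (SD, n = 6) and 1098 ± 156 (n = 5) in control mice at RT and 4°C, and of 1079 ± 190 and 1099 ± 73.9 (n = 6 each) in the knockouts. Cold changed it by log2 0.01 (95% interval -0.21 to 0.23) in control mice and 0.04 (-0.17 to 0.25) in BAT-Mcu-KO mice. The highest value belonged to replicate 4 of the control mice at 4°C. Clpp (chr17:56990305-56996188) ranged from 1584 to 2217. Its log2 fold change by cold was -0.11 (-0.27 to 0.05) in control mice and 0.07 (-0.08 to 0.22) in BAT-Mcu-KO mice. Clpx (chr9:65294260-65330658) ranged from 1191 to 1946, with log2 fold changes of -0.06 (-0.30 to 0.18) and -0.01 (-0.24 to 0.21). In control mice the call for both depended on the scaling: Clpp was called lower with scaling to the 75th percentile (log2 -0.22, adjusted p = 0.0276), and Clpp (-0.31, adjusted p = 0.00076) and Clpx (-0.25, adjusted p = 0.0454) with quantile normalization. The sign of Lonp1 turned under both scalings, and that of Clpp in BAT-Mcu-KO mice under quantile normalization. With 75th percentile scaling the median over all genes in control mice moved from -0.02 to -0.13, and the share of calls that were higher from 48.5% to 38.2%. The calls of Hspd1, Hspe1, Hspa9 and Afg3l2 held under both scalings.

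Afg3l2, the inner membrane protease subunit, changed more but also varied most between mice of a group. Control mice at RT had 795, 1713, 1718, 1715, 2283 and 865 in the order of their numbers. Those at 4°C had 1742, 3132, 3287, 2492 and 2847. The low values at RT were replicates 1 and 6, and replicate 1 at 4°C lay within the RT range. The fold change was 1.87 (log2 0.90, SE 0.27, adjusted p = 0.00721). BAT-Mcu-KO mice had 3128, 1811, 1568, 1398, 1832 and 1684 at RT, where replicate 1 stood above the rest. At 4°C they had 3226, 3137, 2737, 2584, 2793 and 1169, where replicate 6 stood below every mouse of the genotype at RT. The log2 fold change was 0.43 (95% interval -0.09 to 0.96, adjusted p = 0.176), and without that replicate 6 it was 0.65 (adjusted p = 0.0249). The difference between the genotypes' changes, -0.47 (95% interval -1.22 to 0.29), did not pass the test (limma, adjusted p = 0.882). The within-group SD of Afg3l2 was 0.499 on the log2 scale, larger than in 95.1% of the 953 genes within 2-fold of its level, against 0.105 to 0.287 for the other 7 genes.

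The genes most like Afg3l2 over the 23 mice were Rfk (riboflavin kinase), Mcoln1 (a lysosomal cation channel) and Colgalt1 (a collagen-modifying enzyme). Likeness was the root mean square difference of log2 levels, each centred on its mean over the 23 mice, among 9530 genes with a mean of 50 or more. It was 0.17 for Rfk and for Mcoln1 and 0.19 for Colgalt1, where the root mean square of the centred level of Afg3l2 itself was 0.58. The nearest of the other members, Hspa9, was at 0.52 and ranked 1324. Rfk had 555 and 611 in replicates 1 and 6 of the control mice at RT, where the group median was 1115. It had 1098 in replicate 1 of the control mice at 4°C (group median 1591), 1736 in replicate 1 of the knockouts at RT (1118) and 778 in replicate 6 of those at 4°C (1599). In 4 of these 5 mice Rfk, like Afg3l2, was at the lowest or highest value of the group, and the other was next to the lowest. Rfk was chosen for its likeness over these same mice, so this match follows from the choice. Marker sums of other cell types moved with these mice in part. Replicates 1 and 6 of the control mice at RT had the highest sums of their group for brown adipocyte markers (237900 and 247300) and red blood cell markers (6635 and 6180), and replicate 1 at 4°C had the highest of both in its group (336000 and 5445). In replicate 6 of the BAT-Mcu-KO mice at 4°C, low in Afg3l2 like these 3, the red blood cell sum was instead the lowest of its group (2652) and the brown adipocyte sum was next to the lowest (282500). Replicate 1 of the knockouts at RT, high in Afg3l2, had 1948 for red blood cells, next to the lowest of its group, and 187100 for brown adipocytes. Muscle marker sums in these 5 mice ran from 22.2 to 5676. They were the lowest of the group in replicate 6 of the control mice at RT and of the knockouts at 4°C. In replicate 1 of the control mice at RT the muscle sum was the highest (5676). The endothelial sum in control mice was the lowest in replicate 6 at RT (2149). It was next to the lowest in replicate 1 at RT (2595) and at 4°C (4796). In the knockouts, replicate 1 at RT had the highest endothelial sum of its group (3126) and replicate 6 at 4°C the next to highest (4901). The part of these markers in the level of Afg3l2 was not tested.

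**Figure D3:**
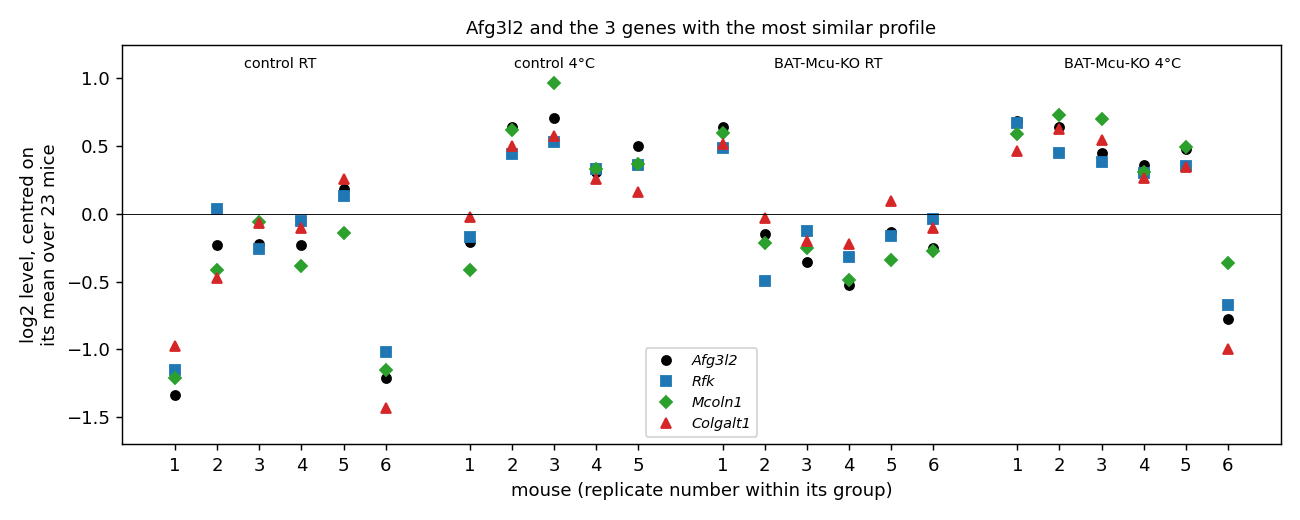
Log2 level of Afg3l2, Rfk, Mcoln1 and Colgalt1 in each of the 23 mice, each gene centred on its mean (vertical axis, log2 units), by group and replicate number. The 4 genes are low together in control RT replicates 1 and 6 and BAT-Mcu-KO 4°C replicate 6, and high together in BAT-Mcu-KO RT replicate 1. Rfk, Mcoln1 and Colgalt1 were chosen for their likeness to Afg3l2 over these same mice.

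The other members had different nearest genes by the same measure. Hspd1 was nearest to Psmc2, a proteasome ATPase, and to Cct8 and Cct7, subunits of the cytosolic chaperonin, at 0.12 to 0.13 where its own root mean square was 0.36. Psmc2 was higher in the cold by log2 0.54 in control mice and Cct8 by 0.63. Both were chosen for their likeness to Hspd1 over these same mice, so this match follows from the choice. Hspe1 was nearest to Hsp90ab1, a cytosolic chaperone, at 0.18, then to Atg12, of autophagy, and Med29, of the Mediator complex, and Hspd1 ranked 19 at 0.24. Hspa9 was nearest to Pgk1, of glycolysis, Cmpk1, a nucleotide kinase, and Mff, of mitochondrial fission, at 0.09. Clpp was nearest to Mdh2, of the citric acid cycle, Ndufa9, of complex I, and Timm50, of the import machinery, at 0.07 to 0.08, and Clpx to Immt, of the inner membrane, Tm9sf2 and Ndufs1, of complex I, at 0.09 to 0.11. Dnaja3 was nearest to Pigq, Idh3a, of the citric acid cycle, and Actr10. For Lonp1 the nearest genes, Ppm1a, Eif4g1 and Rab10, lay at 0.13 to 0.14, not far below its own root mean square of 0.16. These are descriptions over mice that share the 4 groups.

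Levels can be ranked between genes only per length. Per kb of the longest principal transcript, normalized counts in control mice at RT averaged 4189 ± 252 (SD, n = 6) for Hspa9, which lay apart from the rest. Clpp (1929 ± 212), Dnaja3 (1841 ± 124), Hspe1 (1413 ± 377) and Hspd1 (1328 ± 180) followed, and the ranges of neighbours in that order overlapped. Clpx (550 ± 80.8), Afg3l2 (490 ± 186) and Lonp1 (368 ± 31.4) came last, apart from the others. In this group of 3 the neighbours overlapped, while Clpx and Lonp1 did not. At 4°C, Hspe1 stood second in both genotypes, at 2419 ± 340 (n = 5) in control mice and 2624 ± 591 (n = 6) in BAT-Mcu-KO mice, overlapping Dnaja3. In the cold the mean of Clpp lay below those of Hspe1, Dnaja3 and Hspd1 in both genotypes, whereas at RT it lay below none of these in control mice and below Dnaja3 in BAT-Mcu-KO mice. Lonp1 was last in all 4 groups. The order rests on the length used: per kb of all annotated exons, Hspa9 was still first in every group, but Hspe1 averaged 1270 in control mice at 4°C, below Hspd1 (1804), Clpp (1433) and Dnaja3 (1400), and Afg3l2 (153) rather than Lonp1 (248) was last at RT.

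None of the 8 genes passed the test between genotypes at either temperature. The knockouts carried the Ucp1-Cre transgene and the control mice did not, so loss of Mcu cannot be told apart from the transgene. At RT, 0.0478% of all genes passed, and the members' log2 differences of BAT-Mcu-KO from control ran from -0.19 for Hspe1 to 0.38 for Afg3l2, with adjusted p of 0.971 or more. At 4°C, 0.0751% passed, and the differences ran from -0.09 for Afg3l2 to 0.17 for Clpx, with adjusted p of 0.684 or more. No member passed with DESeq2 or edgeR either. At an unadjusted p under 0.05 in limma, 754 of all 14651 genes passed at RT and 1023 at 4°C. Of the members, 0 passed at RT and 1 at 4°C, Clpp (log2 0.17, adjusted p = 0.684). Clpp then stood at 1753 ± 131 (SD, n = 5) in control and 1971 ± 135 (n = 6) in BAT-Mcu-KO mice. The intervals bound what could have been missed. For Hspa9 the 95% interval was -0.12 to 0.18 at RT and -0.16 to 0.15 at 4°C. For Hspd1 it was -0.15 to 0.24 and -0.05 to 0.37, for Hspe1 -0.50 to 0.12 and -0.23 to 0.42. For Afg3l2 it was as wide as -0.14 to 0.90 and -0.63 to 0.46.

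The difference between the genotypes in the change by cold also passed for none of the 8 (0% of all genes in limma, where 878 genes had an unadjusted p under 0.05; 0 genes in edgeR and 28 in DESeq2, none of them a member). The lowest unadjusted limma p among the members was 0.106, again for Clpp, with a log2 difference of 0.18 (95% interval -0.04 to 0.40). For Hspe1 the difference was 0.29 (-0.16 to 0.74) and for Hspd1 0.11 (-0.17 to 0.40).

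**Figure D4:**
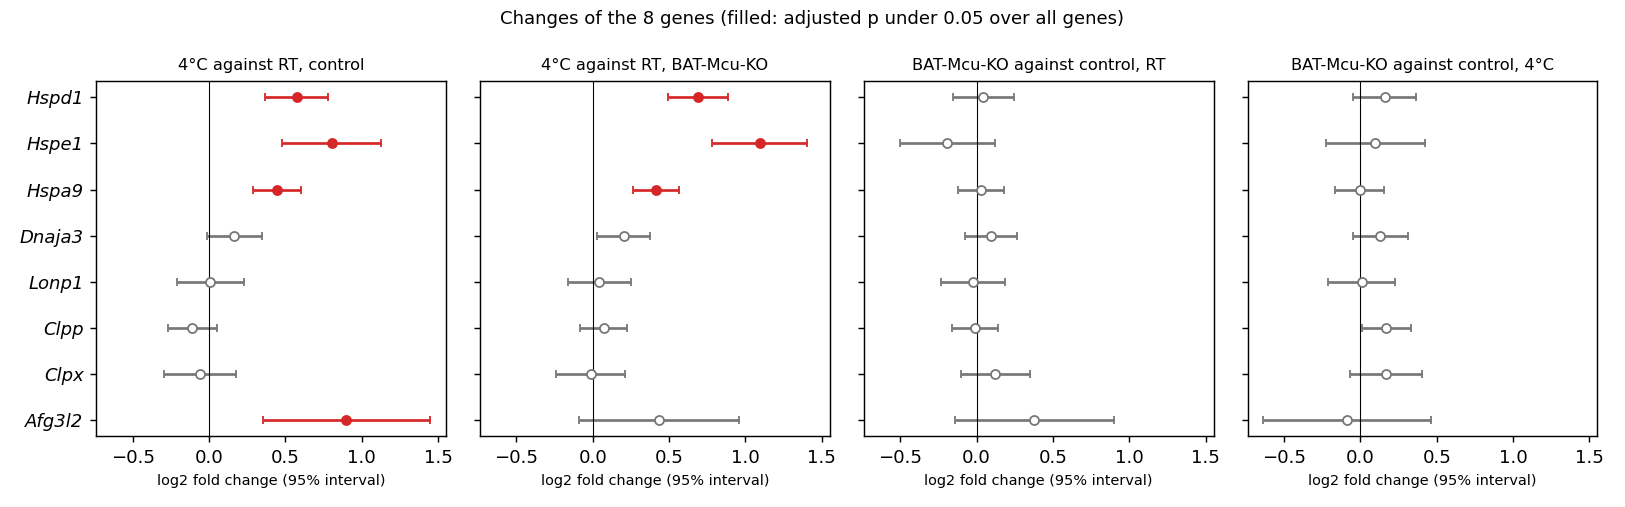
Log2 fold change of each of the 8 genes with its 95% interval (limma), for cold in each genotype (left pair of panels) and for BAT-Mcu-KO against control at each temperature (right pair). Filled points passed an adjusted p under 0.05 over all 14651 genes; they are 4 for cold in control mice, 3 for cold in BAT-Mcu-KO mice and 0 in the right pair.

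The lists of neighbouring genes moved unequally with cold. Of all 14651 genes, 3269 rose and 3466 fell in control mice, and 3136 rose and 3213 fell in BAT-Mcu-KO mice. The counts of every list, here and below, stand beside these. All 10 cytosolic heat shock genes rose in both genotypes, with median log2 fold changes of 1.99 and 1.86. Hspa8, the constitutive cytosolic chaperone, rose by 2.81 (SE 0.15, adjusted p = 4.5e-13) in control mice and by 2.43 (SE 0.15, adjusted p = 2.1e-12) in the knockouts. The inducible Hspa1a, at a mean of 2.42 normalized counts in control mice at RT, rose by 3.62 (SE 0.53, adjusted p = 3.59e-06) and 2.25 (SE 0.50, adjusted p = 0.000682), and Hspa1b and Hsph1 also rose in both. Of 8 chaperones of the endoplasmic reticulum, 5 rose and 2 fell in control mice and 6 rose and 2 fell in BAT-Mcu-KO mice, and the 5 in control mice became 3 under both other scalings. Dnajb9 rose (1.84, SE 0.12, adjusted p = 1.42e-11, in control mice), as did Hspa5 (0.78), while Pdia4 (-1.15) and Pdia6 (-0.80), both disulfide isomerases, fell.

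Other mitochondrial quality-control genes did not follow a single direction. Over all genes, 46% passed by cold in control mice and 43.3% in BAT-Mcu-KO mice, also in both directions. Of 9 other chaperones and cochaperones, 1 rose and 4 fell in control mice and 2 rose and 2 fell in BAT-Mcu-KO mice. Grpel2, a nucleotide exchange factor for Hspa9, rose by log2 0.97 (SE 0.14, adjusted p = 2.29e-06) and 0.80 (SE 0.13, adjusted p = 1.79e-05) in the 2 genotypes. Hscb, the cochaperone of iron-sulfur cluster assembly, fell by 1.31 (SE 0.15, adjusted p = 8.43e-08) and 1.07 (SE 0.14, adjusted p = 1.08e-06), and Dnajc19, of the import motor, fell in both. Of 14 other proteases, 1 rose and 4 fell in control mice and 2 rose and 4 fell in BAT-Mcu-KO mice, and the 4 in control mice became 6 with 75th percentile scaling and 8 with quantile normalization. Lactb fell by 0.78 and 0.96, and Oma1, the stress-activated inner membrane protease, fell by 1.12 in control mice (SE 0.17, adjusted p = 4.77e-06) and by 0.45 in the knockouts (SE 0.16, adjusted p = 0.0216). The inner membrane peptidase genes parted: Immp2l fell in both, and Immp1l rose by 0.33 in both, a call it lost in control mice under both other scalings. Of Phb, Phb2 and Stoml2, inner membrane scaffold proteins that associate with the protease of Afg3l2, 0 of 3 passed in either genotype. In control mice 1 of them, Stoml2, was called lower under both other scalings, and the list's median log2 fold change turned from 0.0053 to -0.10 with 75th percentile scaling and -0.18 with quantile normalization. In BAT-Mcu-KO mice the median turned negative too, at -0.033 and -0.14, with no call.

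Of 18 import genes, 9 rose and 3 fell in control mice and 11 rose and 2 fell in BAT-Mcu-KO mice. Timm8a1 rose by log2 0.91 (SE 0.19, adjusted p = 0.000431) and 1.13 (SE 0.19, adjusted p = 1.9e-05), and Timm10, like Timm8a1 a small chaperone of the intermembrane space, by 0.74 and 0.85. Tomm40, the outer membrane pore, rose by 0.88 and 0.48, and Timm21 fell by 0.81 and 0.58. The upward count in BAT-Mcu-KO mice was 6 with 75th percentile scaling and 8 with quantile normalization, with Tomm40 among those lost under both. The 9 reference genes for mitochondrial content, such as Cs and Vdac1, had 0 calls in control mice, with a median of -0.10, and 1 in BAT-Mcu-KO mice, downward, with a median of -0.02. With 75th percentile scaling 4 of them were called lower in control mice.

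Among 5 transcription factors named for the mitochondrial unfolded protein response, 3 rose in both genotypes. Atf4 rose by log2 2.30 (SE 0.11, adjusted p = 3.89e-14) in control mice and 1.88 (SE 0.10, adjusted p = 5.89e-13) in the knockouts, Atf5 by 1.66 and 0.90 and Cebpb by 0.95 and 0.92, while Ddit3 and Hsf1 passed in neither. Atf4 was also the gene of these lists that differed by genotype: at 4°C its mean was 2992 without and 1922 with the deletion (log2 -0.66, SE 0.11, adjusted p = 0.0151, ranges separate), a call lost when the other 2 groups were left out of the fit (adjusted p = 0.243). Beside it, at the same temperature, Hspd1 was at 4767 ± 422 (n = 5) and 5351 ± 801 (n = 6) and Hspe1 at 1872 ± 263 and 2031 ± 458, with overlap and no call. Atf5 differed by log2 -0.76 at 4°C (95% interval -1.39 to -0.13), with an adjusted p of 0.626 (limma). Oma1, of the protease list, went the other way at 4°C without a call. It was higher in BAT-Mcu-KO mice by log2 0.61 (95% interval 0.27 to 0.95, limma adjusted p = 0.308), with separate ranges.

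**Figure D5:**
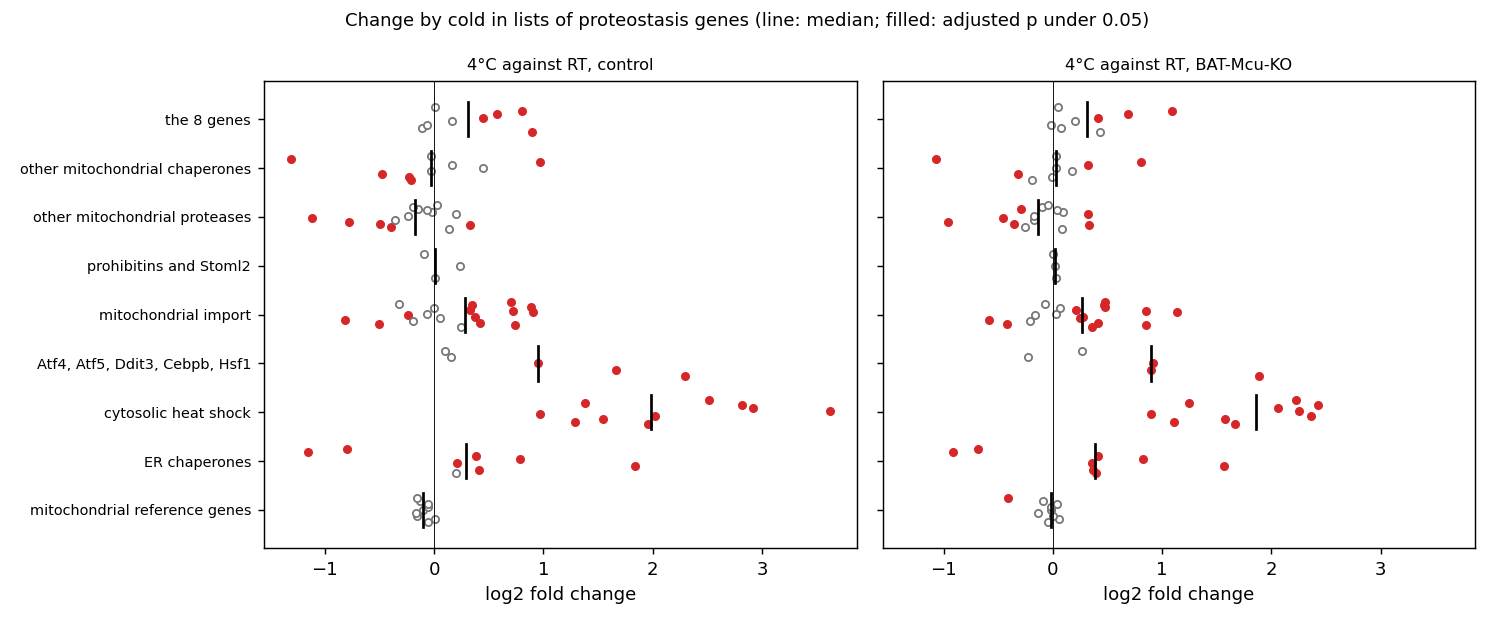
Log2 fold change by cold of each gene (points) in the 8 genes and in 8 lists of other proteostasis and reference genes, in control mice (left) and BAT-Mcu-KO mice (right). The line is the list's median and filled points have an adjusted p under 0.05; the cytosolic heat shock genes run from 0.90 to 3.62 over both panels, whereas the mitochondrial lists hold points on both sides of 0.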

How the data were processed

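RNA from whole BAT was made into Smart-seq2 libraries. Per the study's methods, the authors aligned reads to mm10 (GENCODE M7) with STAR 2.4.0j, counted reads in exons irrespective of strand with HTSeq, dropped genes that failed to reach 8 reads in 6 samples (14651 of 14651 here meet this) and divided by DESeq2 size factors. The deposited values are thus a signal in the form of normalized counts, and 100% of them came out as whole reads when divided by their library's smallest step (tolerance 0.001 reads), which gave back read counts and depth. A deposited table of the authors' own fold changes and p-values was not used. No column of the table lacked a sample (0 of them), and 19 gene names had been turned into dates.

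Values were tested as log2(normalized count + 1) with limma 3.58.1 (R 4.3.3, variance trend, means of the 4 groups in 1 model), p-values adjusted over all genes and called under 0.05. The design had planned for normalized counts of this kind. Fold changes are on that scale, which understates those of low genes. DESeq2 1.42.0 and edgeR 4.0.16 on the recovered read counts were alternatives, as were other pseudocounts, filters, scalings, a replicate block and leaving out each mouse. The scripts were tested on simulated data. Ratios were compared by exact two-sided permutation tests.

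The members and lists were chosen with earlier results of these data known. Genes named are the members, the target Mcu, up to 4 genes of each list with the largest change in control mice among those called alike in both genotypes, list genes called by genotype, and the 3 genes nearest each member. A few others (Atf5 and Oma1 by genotype, Ddit3, Hsf1, the prohibitin scaffold and 2 reference genes) and Lep, Retn and other markers were named to say what a list holds. The 55 pairs of mice within groups differed by more than sampling noise (chi-square per degree of freedom 8.88 to 63.8). Where the labels give separate samples, p-values measure the spread between these mice. Positions are from GENCODE M21 (GRCm38) and start windows from RefSeq (GRCm38.p6).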

Additional observations from a re-analysis of the deposited data

Results flagged for a closer look

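Of 40 sets of values (the 8 genes and 2 ratios in 4 groups), 4 held a mouse whose gap to its neighbour took up more of the group's range than Dixon's critical value allows, where chance gives about 1 in 20. Afg3l2 had 3128 normalized counts in replicate 1 of the BAT-Mcu-KO mice at RT, a gap of 0.749 of the range. In the same genotype at 4°C, Afg3l2 had 1169 in replicate 6, a gap of 0.688 of the range. Lonp1 had 1371 normalized counts in replicate 4 of the control mice at 4°C, a gap of 0.767. The log2 ratio of Clpx to Clpp was 0.062 in replicate 2 of the control mice at RT, a gap of 0.666.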

How the results depend on the processing

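All 4 calls by cold in control mice and all 3 in BAT-Mcu-KO mice held under every alternative tried, with 4 to 6 and 3 to 4 of the 8 genes called, and none was called by genotype or for the difference between genotypes. Among the members' log2 fold changes, 373 of the values from other settings kept direction and call, 6 gained a call and 13 changed sign, as did 511, 4 and 37 of those without 1 mouse. All that changed sign were uncalled. With 75th percentile scaling these were Lonp1 by cold (-0.099 in control, -0.0080 in BAT-Mcu-KO mice) and Hspa9 by genotype (-0.0021 at RT, 0.024 at 4°C) and in the difference (0.026). With quantile normalization they were Lonp1 by cold (-0.16 and -0.10) and by genotype at 4°C (-0.0015) and Clpp by cold in BAT-Mcu-KO mice (-0.11). Lonp1 by genotype at 4°C was -0.0014 with DESeq2 and -0.0022 with edgeR. The cause was not tested. In no comparison did every pair of same-numbered mice correlate above 0.1 in its deviations (-0.364 to 0.427), so the numbers were not taken to pair mice. The comparison of genotypes at 4°C stood apart, with 4 of 5 pairs above 0.1 (mean 0.21) and 3 of 5 mice of each group nearest their own number, a hint from the data and not the design. With a replicate block the number of the 8 genes called was 4 by cold in each genotype and 0 by genotype, Dnaja3 by cold in BAT-Mcu-KO mice was called (0.20, adjusted p = 0.0216), and Lonp1 by cold in control mice (-0.0089) and Afg3l2 by genotype at 4°C (0.041) changed sign. Without 1 mouse each, these log2 values spanned 0: by cold in control mice, Lonp1 -0.073 to 0.048 and Clpx -0.13 to 0.024; by cold in BAT-Mcu-KO mice, Lonp1 -0.023 to 0.10 and Clpx -0.053 to 0.070; by genotype at RT, Hspd1 -0.0093 to 0.10, Lonp1 -0.084 to 0.042 and Clpp -0.055 to 0.035; by genotype at 4°C, Hspa9 -0.055 to 0.038, Lonp1 -0.029 to 0.092 and Afg3l2 -0.24 to 0.13; and for the difference between genotypes, Hspa9 -0.081 to 0.011, Lonp1 -0.032 to 0.12, Clpx -0.038 to 0.13 and Dnaja3 -0.020 to 0.11. The log2 Hspd1/Hspe1 ratio ran from -0.29 to -0.17 by cold in control mice, 0.17 to 0.28 by genotype at RT and -0.0023 to 0.12 by genotype at 4°C, and Clpx/Clpp from -0.0036 to 0.11 by cold in control mice, 0.10 to 0.20 by genotype at RT and -0.048 to 0.053 by genotype at 4°C. Over all genes, genotype calls were 7 at RT and 11 at 4°C, against 20 and 27 with DESeq2, 3 and 2 with only the compared groups, and 6 at 4°C with edgeR. At 4°C they were 7 with the block or without the variance trend and 3 to 16 without 1 mouse. Pseudocounts and the filter to a mean of 50 lost no call; the filter added Dnaja3 by cold in BAT-Mcu-KO mice (adjusted p = 0.0435).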
